A study of Mus musculus with 8 samples.

Results

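The array's probes include a class named only by a genomic interval, that is by a chromosome, a start, an end and, mostly, a strand. The 18123 such probes described here span under 10 kb from start to end, out of 37852 interval-named probes and 149782 non-control probes in all. Of these 18123, 8862 (48.9%) carried the scanner software's flag for a spot well above background on 4 or more arrays, of either group. These 8862 kept probes are what follows, among 54636 probes kept by the same filter over the whole array. They probably target circular RNAs, but no label or header states it, so they are called interval probes throughout.

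RNA came from the livers of 8 male mice, hybridised to 1 one-colour (Cy3) Agilent array each, in a study of sinusoidal obstruction syndrome, an injury of the liver's small vessels. Group 1 was 4 control mice, described as normal. Group 2 was 4 mice given oxaliplatin, a platinum anticancer drug, by intraperitoneal injection once a week for 6 weeks. Strain, age and dose were not given in the labels used here, and the labels describe the replicates as biological. All 8 hepatocyte markers checked, among them Alb, Ttr and Apoa1, were above background on all 8 arrays.

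Circular RNAs form when a splice donor joins an acceptor that lies upstream of it, so that the ends of 1 or more exons close into a ring at a back-splice junction. They have no free ends and no poly(A) tail, resist exonucleases, and are often longer lived than the linear transcript of the host gene that they come from. Only the junction separates a ring from its host's linear RNA, so a probe for a ring has to read across it, with enough bases on both sides.

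The probes are all 60 bases long. In the sequences below, lower case is the stretch before the junction and capitals the stretch after it, 5′ to 3′ in the orientation deposited, with the junction placed where probes that share an interval boundary begin to differ. A chance match of a few bases can move that place. The first set shows 5 probes of Srebf2, the gene of the sterol-responsive transcription factor SREBP2, because probes of this host moved in both directions.
Srebf2 chr15:82181981-82185433: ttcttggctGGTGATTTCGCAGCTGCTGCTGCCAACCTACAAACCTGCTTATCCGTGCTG
Srebf2 chr15:82181981-82182257: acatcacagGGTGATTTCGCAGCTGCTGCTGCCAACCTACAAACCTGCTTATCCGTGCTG
Srebf2 chr15:82175097-82182257: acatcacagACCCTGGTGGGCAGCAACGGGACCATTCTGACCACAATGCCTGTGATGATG
Srebf2 chr15:82172753-82182257: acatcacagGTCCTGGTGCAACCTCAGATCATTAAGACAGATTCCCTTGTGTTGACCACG
Srebf2 chr15:82172753-82179547: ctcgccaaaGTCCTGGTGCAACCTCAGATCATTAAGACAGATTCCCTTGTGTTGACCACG

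The second set shows 3 probes of Rictor, which encodes a scaffold of the kinase complex mTORC2, because they share the stretch after the junction and differ in the stretch before it. Their intervals share the start 6772132 and have different ends.
Rictor chr15:6772132-6773974: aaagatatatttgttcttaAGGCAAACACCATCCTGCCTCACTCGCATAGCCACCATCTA
Rictor chr15:6772132-6774878: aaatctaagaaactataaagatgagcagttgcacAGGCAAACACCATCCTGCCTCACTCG
Rictor chr15:6772132-6776185: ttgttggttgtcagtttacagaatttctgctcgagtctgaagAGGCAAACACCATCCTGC

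The third set shows 3 probes of Lama5, the laminin alpha 5 chain of basement membranes, whose intervals share the end 180198398 on the minus strand and so the stretch after the junction.
Lama5 chr2:180197717-180198398: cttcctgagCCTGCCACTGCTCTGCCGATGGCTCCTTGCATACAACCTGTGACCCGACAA
Lama5 chr2:180195372-180198398: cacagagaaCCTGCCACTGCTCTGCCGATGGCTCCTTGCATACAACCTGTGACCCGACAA
Lama5 chr2:180195881-180198398: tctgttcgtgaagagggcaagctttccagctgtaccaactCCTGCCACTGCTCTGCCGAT

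Many of these probes hold little of the sequence before the junction. Of 24986 pairs of interval probes of any span that share the boundary after the junction, 24553 also share a run of at least 12 bases, and in 24523 pairs that run reaches the end of the probe. Among 20940 pairs that share the boundary before the junction, 6077 share such a run. The junction could be placed in 3643 of the 8862 kept probes, and in 1984 of them (54.5%) it left 9 bases or fewer before it, and so 51 or more after it. It lay near the middle, with 25 to 35 bases before it, in 430 probes. For the 4305 probes placed from both sides, the estimates lay within 5 bases of each other in 4220. The labels name a kit that labels cRNA from total RNA, Low Input Quick Amp, and record no digestion of linear RNA. How much of a probe's signal came from linear RNA was not tested.

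The kept intervals spanned 50 to 9998 bases, with a median of 3640 and a median probe GC content of 45%. On GRCm38.p6, the RefSeq build whose genes match the interval names, 6806 (76.8%) lay inside 1 gene on the same strand, its host, which gave 2990 hosts. A further 31 lay in several genes and 2025 in none, 185 of the latter inside a gene of the opposite strand only. Most hosts were thinly covered, since 1548 had 1 kept probe. The widest kept spans under the limit were chr1:91378466-91388464 at 9998 bases, with a difference between the groups of -0.12, and chr3:37448408-37458400 at 9992 bases, with -1.05. Just beyond the limit, chr15:102178961-102188962 at 10001 bases had -0.04 and chr14:11952716-11962722 at 10006 bases had -0.85.

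Several facts of the whole series bear on every value below. Each group filled a slide of its own, scanned apart, and the effects of slide, of scan and of treatment cannot be told apart. The files carry 2 run names, and run 2 holds only oxaliplatin replicates 1 and 2. Linear probes of p53 target genes, which a platinum drug is known to induce, were lower in the arrays labelled oxaliplatin for 14 of 25 genes and higher for 0, as in Phlda3 (-3.57) and Ccng1 (-1.58). Among 29 linear genes of sex-biased liver expression 13 were higher and 10 lower, with Hsd3b5 at 8.61. Directions below follow the labels, and whether the labels could be exchanged was not tested. Erythroid markers also moved: 4 of the 5 kept of 6 were higher, and their summed log2 level ran from 8.44 to 10.5 in controls and from 10.6 to 11.4 under oxaliplatin. Markers of T and B cells were higher for 1 of 4 kept, with sums of 2.53 to 3.34 and 3.90 to 4.48. None of 3 kept neuronal markers, a negative control, was called, but their sums also did not overlap, at 2.34 to 3.40 and 3.62 to 3.89. Of the other lists, 2 of 8 hepatocyte markers were higher, and 1 each was lower of 7 sinusoidal endothelial, 6 Kupffer and 6 stellate markers. The part of these shifts in the results below was not tested.

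Interval probes were above background less often on the oxaliplatin arrays, with one array far below the rest. Of the 18123, the control arrays in replicate order detected 56.6%, 50.4%, 49.8% and 49.3%, and the oxaliplatin arrays 42.0%, 29.3%, 49.99% and 45.6%. Oxaliplatin replicate 3 lay within the range of the controls, and replicate 2 was lowest of the 8 in each of the 3 classes plotted. For interval probes of 10 kb or more, replicate 2 detected 20.1% against 31.8% to 39.6% on the other oxaliplatin arrays. For protein-coding (NM) probes the gap was smaller, with 53.8% on it against 60.3% to 63.8%. Over all arrays 5100 interval probes were above background on all 8 and 6798 on none. The filter kept 228 probes through control arrays alone, 154 of them called lower below, and 2 through oxaliplatin arrays alone.

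**Figure D1:**
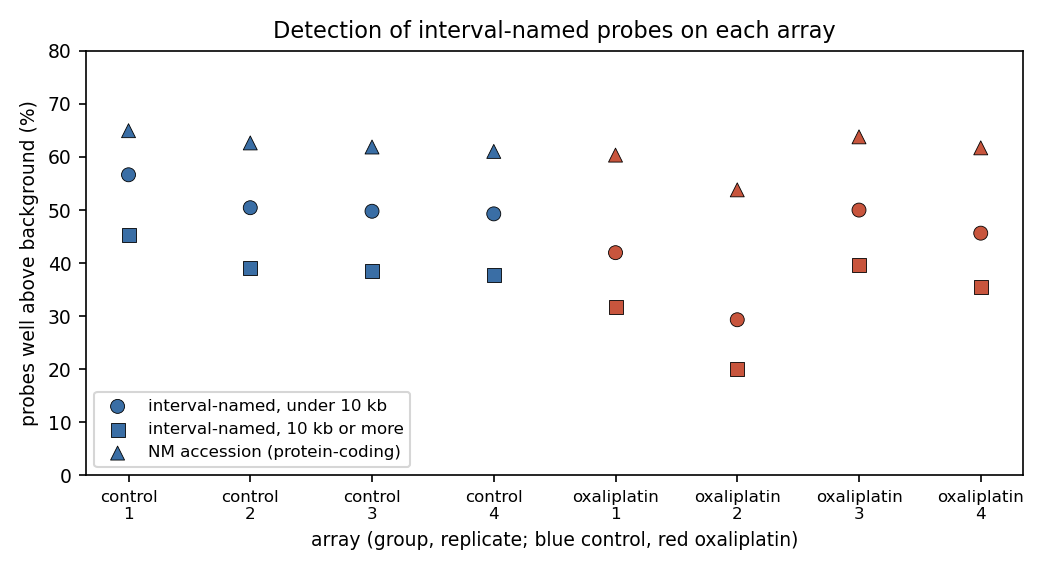
Percentage of probes well above background on each array (y axis) for each of the 8 arrays (x axis; blue control, red oxaliplatin), for interval-named probes under 10 kb (circles), interval-named probes of 10 kb or more (squares) and protein-coding probes (triangles). The circle of oxaliplatin replicate 2 sits at 29.3%, below the 42.0% to 56.6% of the other arrays.

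Among the kept interval probes more fell than rose. With limma over all 54636 kept probes and Benjamini-Hochberg adjustment at 0.05, 446 interval probes were higher under oxaliplatin (5.03%) and 1210 lower (13.7%), where 18.4% of all kept probes were called, 7.42% higher and 11% lower. The level used is the log2 signal minus the array's 75th percentile, and differences are oxaliplatin minus control on that scale. The median difference was -0.17 over the interval probes and -0.09 over all kept probes. Among the 5100 above background on all 8 arrays 338 were higher and 631 lower, with a median of -0.12, against 7.73% and 10.5% of all such probes. At 2-fold or more, 95 were higher and 246 lower, where 2.36% and 2.43% of all kept probes were. The groups did not overlap upward for 649 probes and downward for 1822, where 9.83% and 17.2% of all kept probes separated. Interval probes of 10 kb or more were called in like proportion, 5.90% higher and 11.8% lower.

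The number and balance of calls depend on the filter, the scaling and single arrays. With no filter, over all 18123, the balance turned, to 1134 higher and 809 lower. Over all 149782 non-control probes 18253 were then higher and 3824 lower, so the turn was not particular to interval probes. With each array's 75th percentile taken over probes detected on all 8 arrays, 619 interval probes were higher and 668 lower, so that the share of calls that were higher went from 26.9% to 48.1%. Over all kept probes 5463 were higher and 3390 lower in that setting, against 4053 and 6012 in the main fit. Median centring, which puts the median of all kept probes at -0.72, left 59 higher and 6923 lower, where 829 and 37884 of all kept probes were. Of the rises described below, it ended the calls on Srebf2, Crebbp, Fbxo34, chr2:180197717-180198398 of Lama5 and chr17:39845855-39845953, among others. Calls fell to 730 without control replicate 3, to 884 without oxaliplatin replicate 3, to 969 without oxaliplatin replicate 2 and to 980 without oxaliplatin replicate 4. Within run 1, with 4 control and 2 oxaliplatin arrays, 131 were higher and 279 lower, where 1343 and 1467 of all kept probes were. Called in the same direction under every setting and array left out were 97 probes, 28 higher and 69 lower. Since a setting keeps only probes above background on all 8 arrays, no other probe could be among them. Median centring also limits the higher ones to the 59 that it left.

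Falls were spread over the range of brightness, and rises leaned to bright probes. From the dimmest to the brightest quartile of the kept probes, 3.88%, 4.20%, 4.79% and 7.27% were higher and 14.8%, 11.7%, 14.6% and 13.5% lower. The median difference ran from -0.25 in the dimmest quartile to -0.14 in the brightest, and the median standard error from 0.24 to 0.14. Probes with a central junction stood at a different level from those with an edge junction. With 25 to 35 bases before the junction 27 of 430 were higher and 31 lower, with a median of -0.01. With 9 bases or fewer before it 75 of 1984 were higher and 295 lower, with a median of -0.20. Within each quartile of brightness the medians of the central class lay between -0.05 and 0.04, and those of the edge class between -0.26 and -0.17. GC content moved with the calls too, since probes of at most 40% GC had 83 higher and 102 lower of 1119 and those over 50% had 186 and 501 of 3231. With span the share called higher went down and the share called lower went up, from 62 higher and 108 lower of 954 under 500 bases to 149 and 471 of 3244 at 5000 bases or more.

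The largest rises were mostly in probes that were dim or undetected in control livers, of hosts with varied roles. A probe of Zan, the gene of a sperm membrane protein, at chr5:137382073-137382505, read -3.32, -0.62, -2.13 and -3.83 in controls and 2.08, 1.16, 2.21 and 2.01 under oxaliplatin. It was above background on 1 control array and rose by 4.34 ± 0.63 (SE; adjusted p = 0.00541, limma, as for all p-values here). A probe of Rhot2, a mitochondrial GTPase, at chr17:25841052-25841482, was bright enough to be detected on all 8 arrays. Its levels were 1.06, 2.03, 1.58 and 0.48 in controls and 4.23, 3.09, 4.31 and 4.35 under oxaliplatin, a rise of 2.71 ± 0.38 (adjusted p = 0.00506). Groups did not overlap for either probe, as the rule that named them required. The linear probe of Rhot2 differed by -0.16 (adjusted p = 0.429).

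Others rose in the same way. Kcnma1, a calcium-activated potassium channel, rose by 2.53 ± 0.29 at chr14:23526725-23530294, from -2.79 to -1.45 in controls, where 1 array was above background, to between -0.01 and 0.74. Dbn1, the actin-binding protein drebrin, rose by 2.40 ± 0.34 at chr13:55474050-55474989, with controls between -0.04 and 1.37 and treated arrays between 2.22 and 3.47. Matk, a tyrosine kinase of blood cells, rose by 2.34 ± 0.22 at chr10:81260908-81262156, likewise with 1 control array above background, and Myh6, the alpha heavy chain of cardiac myosin, by 2.21 ± 0.39 at chr14:54957760-54958729. Slc29a2, a nucleoside transporter, was above background on no control array at chr19:5027025-5027764 and was at least 2.93-fold higher under oxaliplatin. That bound sets the bright group's mean against the lowest signal well above background on the dim arrays. Its call was lost without oxaliplatin replicate 3 and within run 1. The unhosted interval chr3:94559490-94562284, above background on 2 control arrays, rose by 2.75 ± 0.52. Where few control arrays are above background, the size of a rise rests on dim signal.

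The rises shared a pattern over arrays. In 6 of the 10 largest, control replicate 2 was the highest control and oxaliplatin replicate 2 the lowest treated array, as in Zan, Rhot2 and Dbn1. The same order held for 20 of 95 members called higher at 2-fold or more (21.1%), for 8.84% of the kept interval probes and for 7.64% of all kept probes. This pattern was noticed after the values were seen, and its source was not tested.

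**Figure D2:**
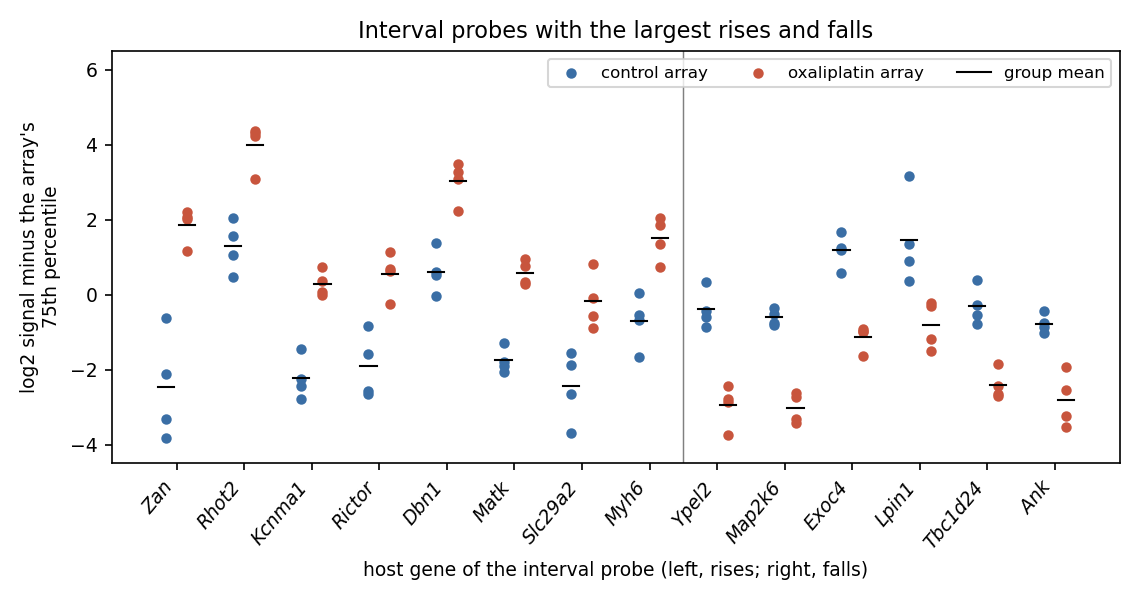
Level of each array (log2 signal minus the array's 75th percentile; points, blue control and red oxaliplatin; bars, group means) for the interval probes with the largest rises (left of the line) and falls (right) that lie in a named host gene. The 14 probes were chosen among those whose groups do not overlap, and most falls start from control levels between -1 and 2.

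The largest falls mostly ended below background, so their size is a bound. Those above background on no oxaliplatin array passed the filter through the control arrays alone, and their p-values carry that choice. Ypel2 at chr11:86971809-86972122 read -0.87, -0.43, -0.60 and 0.33 in controls and was above background on no oxaliplatin array, at least 1.73-fold lower, with a measured difference of -2.56 ± 0.33 (adjusted p = 0.00404). Map2k6, a kinase that activates p38, was at least 1.49-fold lower at chr11:110490145-110494346, and its linear probe fell by 1.70. Exoc4, a subunit of the exocyst that tethers secretory vesicles, was above background on all 4 control arrays and 1 oxaliplatin array at chr6:33296733-33305394, with 1.25, 0.58, 1.20 and 1.68 in controls and -0.99, -0.91, -1.63 and -0.97 under oxaliplatin. It fell by 2.30 ± 0.25 (adjusted p = 0.003), while its linear probe fell by 0.79. Further falls known only as bounds were those of Tbc1d24 (at least 1.84-fold), for the phosphate and pyrophosphate transport gene Ank (at least 1.33-fold) and for the unhosted intervals chr7:47078064-47078345 (at least 1.62-fold), chr2:93220019-93224578 (at least 1.47-fold) and chr19:3814215-3814943 (at least 1.14-fold).

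Lpin1, which encodes a phosphatidate phosphatase, fell together with its linear transcript. Its probe at chr12:16558409-16562456 read 1.35, 0.37, 0.90 and 3.15 in controls and -0.24, -1.51, -1.19 and -0.30 under oxaliplatin, a fall by 2.25 ± 0.57 (adjusted p = 0.0297), and the linear probe fell by 2.19. The ratio of the pair moved by -0.06 (adjusted p = 0.772). The call on the interval probe was lost when any of control replicates 1 and 3 or oxaliplatin replicates 2, 3 and 4 was left out.

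Falls that held in every setting included brighter probes. Tsc1, the hamartin subunit of the complex that restrains mTORC1, read 3.69, 2.93, 3.58 and 3.50 in controls and 1.46, 2.15, 1.20 and 1.15 under oxaliplatin at chr2:28686773-28686953. It fell by 1.94 ± 0.25 (adjusted p = 0.00418). Ppargc1a, a coactivator of mitochondrial and gluconeogenic genes, read 1.63, 1.59, 0.98 and 1.03 against -0.22, -0.34, -0.37 and -0.37 at chr5:51548512-51548691. Slc20a1, a phosphate transporter, fell by 1.59 ± 0.27 at chr2:129208183-129210883, and its linear probe by 1.53. Rises of this kind included Pik3c2b, a class II phosphoinositide kinase, with -0.08, 0.22, -0.35 and -1.25 in controls and 1.85, 1.18, 2.08 and 1.98 under oxaliplatin at chr1:133066212-133070418.

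Some probes named for nearly the same interval gave nearly the same value. Arl13b, a small GTPase of cilia, has 3 probes whose intervals differ by at most 4 bases at each end, and they fell by 1.44, 1.38 and 1.37, beside a fall of 1.40 in the linear probe. Cirbp, an RNA-binding protein induced by cold, has 3 probes that fell by 1.34, 1.29 and 1.29, beside 1.30 in the linear probe. In both genes the ratio of interval to linear probe moved by no more than 0.04 in either direction for these 6 probes.

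The brightest interval probes mostly did not move. Cox6a1, a subunit of cytochrome c oxidase, has the brightest pair, at 0.23 ± 0.14 and 0.33 ± 0.12, neither called. Mdh1, a malate dehydrogenase (0.12), Mpc2 of the mitochondrial pyruvate carrier (0.16), the ribosomal scaffold Rack1 (0.06) and the ferritin heavy chain Fth1 (-0.13) were not called either. Several of these change sign under median centring or normexp background correction, as given in the closing section. Hba-a1, an alpha globin, read 8.62, 7.73, 7.99 and 10.28 in controls and 10.16, 11.06, 10.67 and 9.90 under oxaliplatin at chr11:32284099-32284451. It rose by 1.79 ± 0.53 (adjusted p = 0.0474), and the call was lost whichever array was left out, except control replicate 4. The linear Hba-a1 probe rose by 1.58, beside the rise of the erythroid markers given above, whose part in the result was not tested. The unhosted interval chr17:39845855-39845953 rose by 0.51 ± 0.12 and chr16:76403215-76403453 fell by 0.51 ± 0.11. The former call was lost without control replicate 3 or oxaliplatin replicate 2, 3 or 4, and both were lost within run 1.

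Interval probes of 1 host resembled each other most where they shared sequence. Over pairs of kept probes of the same host with no shared boundary, the median gap between their differences was 0.27, with a correlation across pairs of r = 0.32 (9789 pairs). Sharing the boundary before the junction gave a gap of 0.23 (r = 0.53, 895 pairs), and sharing the one after it 0.17 (r = 0.64, 1271 pairs). Where both probes of a pair also had 9 bases or fewer before the junction, and so share most of their bases, the gap was 0.11 (r = 0.81, 524 pairs). Where either had 25 or more, the gap was 0.32 (r = 0.42, 413 pairs). These are descriptions across pairs, which share arrays, hosts and bases and are not independent.

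**Figure D3:**
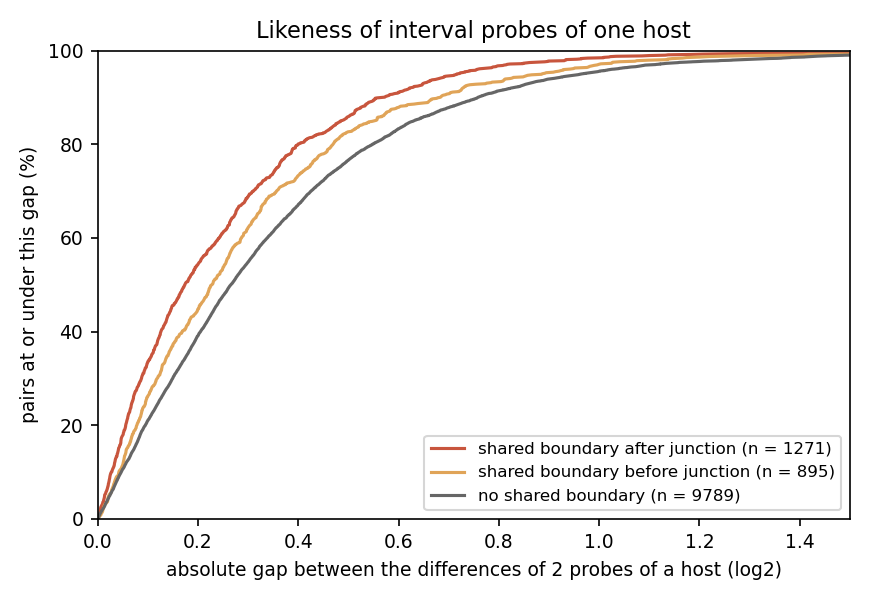
Cumulative percentage of probe pairs of 1 host gene (y axis) whose differences between oxaliplatin and control lie within the gap on the x axis (log2), for pairs sharing the boundary after the junction (red), the boundary before it (orange) or none (grey). The red curve lies above the others, with a median gap of 0.17 against 0.23 and 0.27.

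Against the linear probe of the host, some interval probes changed unequally. For 6536 interval probes in 2817 hosts with a kept linear probe, the log2 ratio of interval to linear signal rose for 432 and fell for 569, together 15.3% of the pairs, where 15.3% of all interval-host pairs of any span were called, 6.57% higher and 8.7% lower. These calls fell in 751 hosts. Across pairs the differences of interval and linear probe correlated at r = 0.40 (Spearman's rho = 0.37), as a description. The correlation rose with the interval probe's brightness, from 0.28 in the dimmest quartile to 0.51 in the brightest. It was 0.64 over the 222 pairs whose probes share 20 bases. The split of these calls depends on background and scaling: it was 1085 higher and 439 lower with normexp background (71.2% of calls higher, against 43.2%), and 387 and 894 with quantile normalization (30.2%). Calls fell to 374 without control replicate 3, 501 without control replicate 4, 575 without oxaliplatin replicate 3, 638 without control replicate 2 and 655 without oxaliplatin replicate 4.

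Central-junction probes were again apart. With 25 to 35 bases before the junction the ratio rose for 38 of 335 pairs and fell for 12, with a median of 0.09. With 9 or fewer it rose for 78 of 1488 and fell for 126, with a median of -0.09. Whether more of the signal of central probes comes from rings was not tested.

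Where an interval probe and its host's linear probe were both called, the direction was mostly the same. Such pairs were a minority: of 1182 called interval probes with a pair, 880 had a linear probe that was not called. Both were called in the same direction in 281 pairs, 244 lower and 37 higher, and in opposite directions in 21, all of which also passed the test of the ratio. Opposite calls on the same arrays make a ratio call likely, so it is no separate evidence. In 13 of the 21 the interval probe was higher and the linear probe lower. Relch, a protein of endosomal cholesterol transport, read -1.16, -1.28, -1.27 and -1.40 in controls and 0.91, 0.17, 0.75 and 0.82 under oxaliplatin at chr1:105743211-105751043, while its linear probe fell by 0.35. Erbin, a scaffold at the basolateral membrane, rose by 1.11 ± 0.15 at chr13:103884143-103889285 beside a linear fall by 0.36, from 1 detected control array to 4 treated ones. Eif4e, the cap-binding translation factor, rose by 0.54 ± 0.10 at chr3:138546321-138555491 beside a linear fall by 0.55.

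The other 8 went the opposite way. Spsb4 at chr9:96995575-96996421 fell by 1.20 ± 0.32, with 1 oxaliplatin array above background, while its linear probe rose by 2.72, and Itga10, an integrin alpha chain, at chr3:96648098-96655135 fell by 1.11 ± 0.13 while its linear probe rose by 1.85. Rack1 has a second bright interval in this set, chr11:48802310-48803499, with 7.69, 7.70, 7.73 and 8.04 in controls and 7.38, 7.36, 7.36 and 7.35 under oxaliplatin, beside a linear rise of 0.31. Pcsk7, a proprotein convertase, was below background on every oxaliplatin array at chr9:45918762-45919894, beside a linear rise of 0.43.

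**Figure D4:**
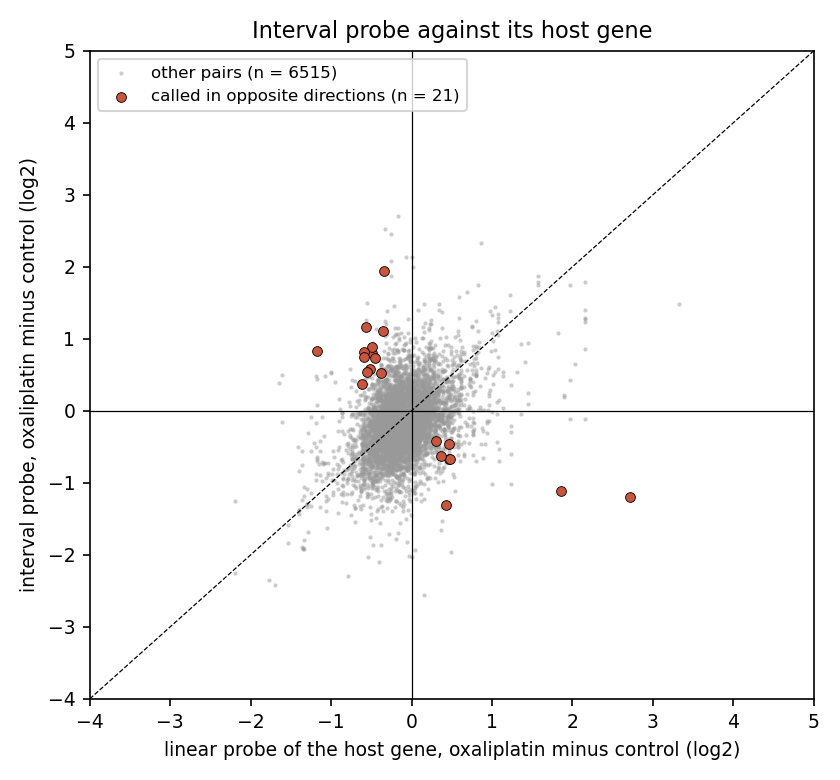
Difference between oxaliplatin and control for the interval probe (y axis, log2) against that of its host's linear probe (x axis, log2), 1 point per pair (n = 6536), with the 21 pairs called in opposite directions in red and the line of equal change dashed. In 13 red points the interval probe is above 0 and the linear probe below it.

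The 12 pairs with the smallest p for the ratio were chosen by rule. Upward, these were Lama5 (ratio difference 2.01), Cul7, the scaffold of a ubiquitin ligase (1.58), Relch (2.29), Fbxo34 (1.14), Zkscan6 (1.74) and Wipf2, an actin regulator (1.69). Wipf2 was the brightest of them at chr11:98896117-98899855, with 5.73, 5.74, 5.36 and 5.12 in controls and 6.87, 6.87, 6.98 and 6.78 under oxaliplatin. Downward were Itga10 (-2.96), Csad, an enzyme of taurine synthesis (-1.16), the splicing regulator Ptbp1 (-1.38), Rhbdd1 (-1.27), Fbxo11 (-1.34) and Rrp1b (-1.72). In Csad neither probe was called, at -0.44 and 0.71, and only the ratio was. On the oxaliplatin arrays the interval probes of Rhbdd1, Fbxo11 and Rrp1b were above background on none, at least 1.19-, 1.25- and 1.10-fold lower, and those of Itga10 and Ptbp1 on 2, so the size of these ratio falls rests on dim signal. The 6 upward ratio calls held in every planned setting. Of the 6 downward ones, Rrp1b lost its call with normexp background, and the other 5 held in the settings whose filter kept them. The probes of Rhbdd1, Fbxo11 and Rrp1b passed the filter through the control arrays alone, and their calls carry that choice. Among all pairs, 67 ratio calls, 42 higher and 25 lower, held in every planned setting. The bright probe of Mknk2, a kinase of Eif4e, at chr10:80671736-80675940, was among those 67. Its own change of 0.33 was not called, its linear probe fell by 0.75 and the ratio rose by 1.08.

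Srebf2 had 13 kept interval probes, of which 2 rose and 8 fell. The sequences printed above show how they divide. Both risers, chr15:82181981-82185433 and chr15:82181981-82182257, share the same 51 bases after the junction, and the first read 0.65, 0.96, 0.50 and 0.79 in controls and 1.40, 1.33, 1.60 and 1.55 under oxaliplatin. The second read 0.61, 0.79, 0.67 and 0.42, then 1.37, 1.32, 1.54 and 1.51, so the 2 probes rose by 0.75 ± 0.13 and 0.81 ± 0.12. The 9 bases before the junction of the second riser are also those of chr15:82175097-82182257, which fell by 0.96 ± 0.11, and of chr15:82172753-82182257, which fell by 1.01 ± 0.15. Among these 5, probes with the same stretch after the junction moved alike, and the 3 with the same stretch before it did not. The linear probe of Srebf2 fell by 0.60 (adjusted p = 0.022). 

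Rictor and Lama5 show probes of shared sequence that differed. The Rictor probes ending at 6773974 and 6774878 rose by 2.09 ± 0.34 and 2.46 ± 0.44, the latter above background on 1 control array, and the one ending at 6776185 stood at -0.10 ± 0.14 (adjusted p = 0.645), with 42 bases before the junction. Levels of chr15:6772132-6773974 were 0.01, 0.89, 0.52 and -0.09 in controls and 2.54, 1.49, 2.76 and 2.89 under oxaliplatin. A further Rictor probe, chr15:6756461-6765119, fell by 0.80 ± 0.18, a call lost within run 1, and the linear probe was at -0.25 (adjusted p = 0.215). In Lama5, chr2:180197717-180198398 rose by 0.83 ± 0.12, and chr2:180195372-180198398, with the same 51 bases after the junction, stood at 0.44 ± 0.18 (adjusted p = 0.12). Lama5 chr2:180195881-180198398, with 40 bases before the junction, fell by 0.70 ± 0.16, with 1 oxaliplatin array above background, a call lost without control replicate 3 and within run 1, and the linear probe fell by 1.18.

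Hosts with many interval probes differed in how uniformly these moved. Of 316 hosts with at least 5 kept probes, which hold 2351 probes, 121 had none called, 124 had calls only lower, 48 only higher and 23 both. Sptan1, the alpha spectrin of the membrane skeleton, had the most, 30 kept of 33. None rose, 19 fell, and all 30 differences lay between -0.81 and -0.05. Malat1, an abundant nuclear long RNA, had 25, of which 3 rose and 1 fell, with a range from -0.57 to 1.06. Of its 25 ratios to the linear probe 8 rose. Ncor1, a nuclear receptor corepressor, had 24, of which 2 rose, with a median of 0.00.

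Other hosts had fewer probes, and not all of them were uniform. Serinc3, a multipass membrane protein, had 10 probes between -1.12 and -0.66, 6 of them called lower, while its linear probe stood at -0.16 (adjusted p = 0.312), and 5 ratios fell. Its probe chr2:163627876-163629219 read 4.30, 4.35, 4.74 and 5.46 in controls and 3.85, 3.50, 3.58 and 3.41 under oxaliplatin. All 5 probes of Tsc1 fell, with the linear probe at 0.04. Kdm5b, a demethylase of histone H3 lysine 4, had 7 kept of 17, 4 of them higher, with 5 ratios higher. In the growth factor receptor gene Egfr 5 of 10 rose, and the 10 differences lay between 0.66 and 1.15. In Lifr, the receptor of leukaemia inhibitory factor, 6 of 7 rose, with 1.79 ± 0.34 at chr15:7178913-7188133. The linear probe of Lifr rose by 2.16, more than 6 of its 7 interval probes by the ratio test, but with the mean over all Lifr linear probes the ratio of chr15:7178913-7188133 turned from -0.36 to 1.31. In Ktn1, which encodes the membrane protein kinectin, 2 rose and 1 fell, and these 3 calls were each lost when any of several arrays was left out.

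**Figure D5:**
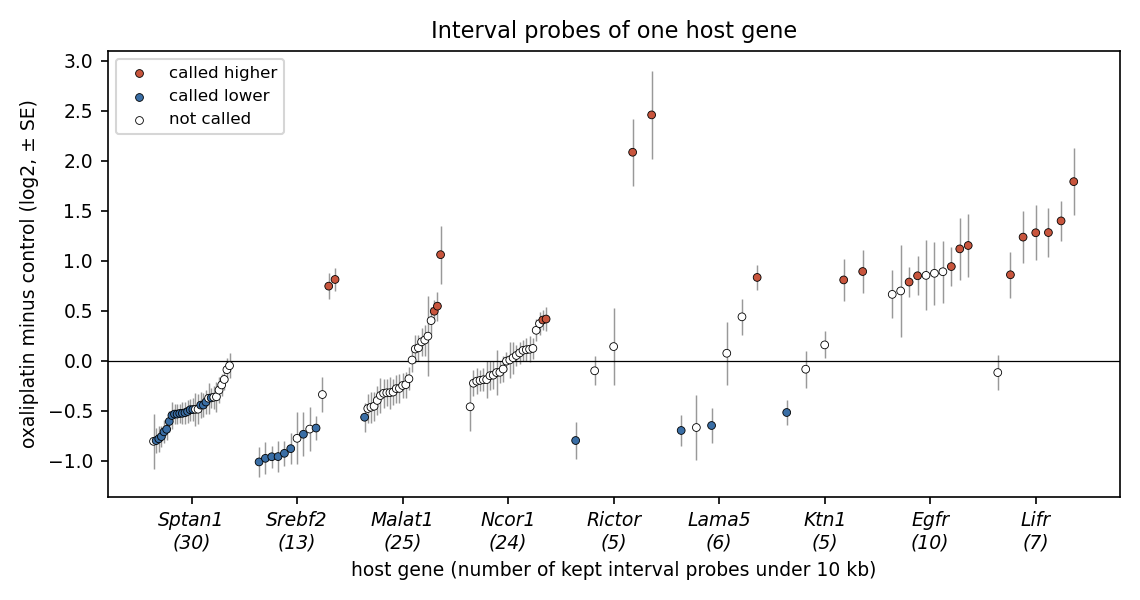
Difference between oxaliplatin and control (log2, bars 1 SE) of every kept interval probe in 9 host genes (x axis, number of probes in brackets), sorted within each host, red where called higher, blue where called lower and white where not called. The 30 Sptan1 probes all lie below 0, and the Srebf2, Rictor, Lama5, Malat1 and Ktn1 probes lie on both sides.

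Of 49 kept probes in 12 hosts known for circular RNAs 2 rose (4.08%) and 4 fell (8.16%), with a median of -0.22, where 7.42% of all kept probes were higher and 11% lower. Crebbp, a histone acetyltransferase, rose by 0.75 ± 0.13 at chr16:4085178-4085547, from 6.91, 7.22, 6.86 and 6.77 to 7.58, 7.66, 7.81 and 7.72, while none of its 7 other probes was called. Zbtb20, a transcriptional repressor, rose by 0.61 ± 0.15 at chr16:43569681-43577748 (adjusted p = 0.0285), lost when any array but control replicates 2 and 4 was left out. Hipk3 is a kinase gene whose best-studied ring is its second exon, and which of its intervals holds that exon was not determined. Its probe at chr2:104441245-104446635 fell by 0.79 ± 0.11 beside a linear fall by 0.60. A further Hipk3 probe, chr2:104470749-104471847, fell by 0.54 ± 0.15, a call lost in 6 of the 8 fits that leave out 1 array. The nearly coincident Hipk3 interval chr2:104470746-104471850 was dimmer and not called, at -0.36 ± 0.19 (adjusted p = 0.209). Rtn4 (-0.07) and Mbnl1 (0.08) were not called. Both intervals at Cdr1as, a brain-enriched ring, chrX:61183248-61186174 and chrX:61181550-61186174, were above background on 0 arrays.

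Genes that make or degrade circular RNAs had 57 kept interval probes in 20 hosts, of which 2 rose (3.51%) and 5 fell (8.77%), with a median of -0.12. Of 36 linear genes on this list 0 rose and 4 fell (11.1%), close to the 11% of all kept probes that were lower, among them the helicase Ddx39a (-0.69), Hnrnpm (-0.49) and G3bp1 (-0.39).

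Interval probes of p53 target hosts mostly fell, and the linear probes of these hosts did so in part. Of 10 kept probes in 5 hosts 0 rose and 7 fell, with a median of -0.76, where 7.42% of all kept probes were higher and 11% lower. Probes of a host are not independent, and chr10:117696381-117705229 and chr10:117701565-117705229 of Mdm2 share 54 bases. In Mdm2, the ubiquitin ligase of p53, all 3 fell, as in chr10:117701565-117705229 with 0.71, 0.29, 0.83 and 0.72 in controls and -0.02, -0.40, -0.33 and -1.04 under oxaliplatin. In Ei24, a membrane protein of the endoplasmic reticulum, both fell, by 0.85 ± 0.13 and 0.59 ± 0.13, the latter lost without control replicate 3 or oxaliplatin replicate 2 or 4. In Sesn1, a stress-induced regulator of mTORC1, 1 of 3 fell, a call lost in 6 of the 8 fits that leave out 1 array. The linear probes were called lower in Mdm2 (-0.43), Ei24 (-0.54) and Gtse1 (-1.41), and not called in Sesn1 (-0.48) and Plk2 (0.02). The ratio of chr10:117701565-117705229 to the linear Mdm2 probe fell by 0.65 (adjusted p = 0.0453), a call lost in 13 of 20 alternative settings. Of 46 linear genes of secreted plasma proteins 16 were higher and 0 lower, where 7.42% of all kept probes were higher and 11% lower. These hosts had only 2 interval probes on the array under 10 kb, 1 of them lower. The 32 sex-biased genes had 2 such probes, neither kept.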

How the data were processed

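Per the file headers, the deposited processed signal is a fluorescence intensity, background-subtracted and detrended within each array by Feature Extraction 12.0.3.1, while the submitters' processing notes name version 10.7 and limma. The mean spot signal and local background, also deposited as intensity by the authors, served the normexp alternative, and the deposited flags of 0 or 1 (unit other) gave detection. Signals were taken to log2, each array's 75th percentile over 149782 non-control probes was subtracted, and outlier spots were left out. The comparison was limma's (version 3.58.1, R 4.3.3; lmFit, then eBayes) over 54636 probes (residual degrees of freedom 6, prior 2.76), two-sided, with Benjamini-Hochberg adjustment and a threshold of 0.05. Ratios were tested likewise over 11906 interval-host pairs. The number of arrays limits the precision.

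A host was meant to be the gene with linear probes in or around the interval by the files' coordinates. The headers give build mm9 for the probe grid, but the interval names fit GRCm38: of 893 probes sharing 20 bases with a gene's linear probe, 865 lie inside that gene on GRCm38.p6, so hosts were taken from that annotation, and each symbol's brightest curated probe is its linear probe. Of 48257 curated probes 47985 were named through the RefSeq table. Whether interval starts count from 0 or 1 is not given in the sources used here.

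Named were the 10 largest rises and falls with separated groups, the 10 brightest, 6 ratios each way, 10 probes of known ring hosts and the 3 fullest hosts, and further members were chosen after their values were seen. One of the largest rises and one of the largest falls are not reported here. Members and lists were chosen with earlier results of these data known. In simulated data on 54636 probes with 200 changed, the fit called 54 of 100 changed by 1 and 92 of 100 changed by 2 (log2), 0 in the wrong direction, and 7 unchanged probes. The simulated noise was independent between probes and held no slide or scan effect. Far fewer probes were changed than the 18.4% called in the real data, so these rates need not hold there. Files were read with pandas 2.3.3 in Python 3.11.15 and plotted with matplotlib 3.10.9.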

Additional observations from a re-analysis of the deposited data

Results flagged for a closer look

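In 9 of 148 groups of 4 arrays examined, 1 array stood apart from the other 3 by Dixon's criterion at 95%, where chance marks about 1 in 20 groups. Control replicate 1 detected 56.6% of the interval probes under 10 kb, against 49.3% to 50.4% on the other control arrays. On that array the Ktn1 probe chr14:47714632-47720285 read -0.58 (others -1.42 to -1.37) and the Ei24 probe chr9:36788193-36793349 read 3.71 (others 4.10 to 4.14). Control replicate 4 read 0.51 for the Sesn1 probe chr10:41894042-41902676, against -0.68 to -0.50. Oxaliplatin replicate 2 was low for Rhot2 chr17:25841052-25841482, at 3.09 (others 4.23 to 4.35), and for Fth1 chr19:9982708-9984312, at 8.90 (others 9.04 to 9.07). Oxaliplatin replicate 3 read -1.63 for Exoc4 chr6:33296733-33305394 (others -0.99 to -0.91), 1.40 for Mbnl1 chr3:60528756-60529804 (others 1.19 to 1.22) and 0.079 for Srebf2 chr15:82172753-82179547 (others -0.25 to -0.22).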

How the results depend on the processing

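The count of interval probes called, 1656, went to 6982 with median centring, 595 with the replicate number as a block, 463 with the run name as a covariate and 410 in run 1 alone, and to between 730 and 1363 when 1 array was left out. With no filter it was 1943, of which 836 were shared with the 1656 in the same direction, and 1134 were higher and 809 lower. The 1001 ratio calls went to 1524 with normexp background, 574 with the replicate block, 187 with the run covariate, 250 in run 1 alone and 72 over the 281 pairs whose host was taken from shared sequence, an alternative added after the data were seen. Leaving out 1 array gave 374 to 854 ratio calls. Same-numbered arrays deviated together at r between -0.22 and 0.02, which gives no sign that the numbers pair the mice. Differences between arrays could hide a pairing, so this check cannot exclude it. The planned host rule of a linear probe inside the interval was not run, since it needs both builds.

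Of 2036 alternative values of the named probes and ratios 1795 kept their direction and call, 204 lost the call, 12 gained one and 25 changed sign. Median centring turned Cox6a1 (-0.39 and -0.30), Mdh1 (-0.51), Mknk2 (-0.30), Rack1 (-0.57), Mpc2 (-0.47), Mbnl1 (-0.54), Crebbp chr16:4114774-4117668 (-0.60), Zbtb20 chr16:43569681-43577748 (-0.015) and chr17:39845855-39845953 (-0.12). Normexp turned Mdh1 (-0.071), Rack1 (-0.24), Crebbp chr16:4114774-4117668 (-0.0022) and the ratio of Ank (0.13). Quantile normalization turned Mdh1 (-0.050), Rack1 (-0.049), Rtn4 (0.013) and Crebbp chr16:4107428-4109218 (0.013), and the percentile over detected probes turned Rtn4 (0.044) and Crebbp chr16:4107428-4109218 (0.070). Rtn4 turned to 0.069, 0.084, 0.025 and 0.0046 without control replicates 2 and 3 and oxaliplatin replicates 3 and 4. The mean over host probes turned the Lifr ratio to 1.31. The cause of these changes was not tested. Of the 10 largest rises and the 10 largest falls, 7 each kept the call in every setting whose filter kept the probe. Of these 20, only Rhot2 and Dbn1 passed every filter. The falls above background on no oxaliplatin array entered through the control arrays alone. Stricter filters dropped them, so those settings could not end their calls. Signal over background limits the size of changes in dim probes.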
